A study of Mus musculus with 30 samples.

Results

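Long intergenic noncoding RNAs (lincRNAs) are transcripts over stretches between protein-coding genes that are not translated into a known protein. Here they comprised every row with the biotype lincRNA whose mean normalised count reached 10 in at least 1 group of at least 1 of 14 deposited pairwise tables. By this rule 252 of 20093 features were members, out of 649 lincRNA rows in all, and 397 lincRNA rows never reached that level. Membership was set by the measured levels themselves, so levels above the minimum are a description and not a result. The 2 members nearest to the minimum were Gm15408, at a mean of 10 in small intestinal cells with low GFP, and Gm26836, at a mean of 10 in GFP-negative colon cells. Gm17215, at 9.67 in unsorted normal colon, and Gm26785, at 9.67 in GFP-negative cells of the DSS colon, fell just short.

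The study sorted intestinal mesenchymal cells of C57BL/6 mice that carried the ColVI-cre and Rosa mTmG alleles, in which a membrane Tomato protein gives way to membrane GFP in cells where Cre has acted. In all 10 groups the mice carried both alleles, so GFP marks cells with a present or past activity of the collagen VI driver and not a lineage defined by any lincRNA. The normal colon gave GFP-positive cells (G), GFP-negative Tomato cells (T) and unsorted cells (U), and the colon of mice given dextran sulfate sodium (DSS), a chemical that injures the colonic epithelium and causes colitis, gave the same 3 groups (GDS, TDS and UDS). The small intestine, from mice without DSS, gave cells with high GFP (GIH), cells with low GFP (GIL), GFP-negative cells (TI) and unsorted cells (UI). RNA was read by 3' end sequencing in 3 libraries per group, except UI, where 2 were analysed here. The labels state no age, dose, duration or animal identity, so the p-values below measure the spread between these libraries, which may in part be technical. Library code ranges of normal colon, DSS colon and small intestine did not overlap, and a DSS effect cannot be told apart from a difference between those ranges.

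Some lincRNAs act in the nucleus, where Malat1 and Neat1 are parts of nuclear speckles and paraspeckles and Xist coats the inactive X chromosome. Others are hosts for small RNAs cut from the same transcript, and others lie beside developmental transcription factor genes, as Fendrr does beside Foxf1 and Tbx3os2 beside Tbx3. In the gut, mesenchymal cells surround the crypts and respond to epithelial injury, and lincRNA levels are often more cell-type restricted than those of coding genes.

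RefSeq miRNA hairpins lay within 10 members, which together gave 54 mature sequences. The mature miRNAs below stand for hosts whose levels are described further on, with the seed (bases 2 to 8) in capitals (RefSeq, GRCm38.p6). let-7d lies in 6720427I07Rik, miR-142a in Mir142hg, miR-155 in Mir155hg and the other 4 in Mir17hg. In that last host, miR-17-5p and miR-20a-5p share a seed, and miR-19a-3p and miR-19b-3p share another. The libraries measured the host transcripts and not these miRNAs.
let-7d-5p: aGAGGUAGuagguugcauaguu
miR-142a-3p: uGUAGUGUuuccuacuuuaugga
miR-155-5p: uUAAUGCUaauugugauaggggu
miR-17-5p: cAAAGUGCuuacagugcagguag
miR-20a-5p: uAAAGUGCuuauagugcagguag
miR-19a-3p: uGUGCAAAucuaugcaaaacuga
miR-19b-3p: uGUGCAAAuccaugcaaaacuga

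Promoters were matched by symbol in RefSeq for 117 of 252 members. Each line below shows 250 bases before to 50 bases after the RefSeq start of a member whose DSS response is described below, 5' to 3' on the member's strand, with matches to the motifs searched in capitals: Gm42788 (chr5:149144013-149144312, plus strand), Gm17501 (chr3:145649827-145650126, plus strand), Dubr (chr16:50732724-50733023, minus strand) and 2410080I02Rik (chr19:23134248-23134547, plus strand).
Gm42788: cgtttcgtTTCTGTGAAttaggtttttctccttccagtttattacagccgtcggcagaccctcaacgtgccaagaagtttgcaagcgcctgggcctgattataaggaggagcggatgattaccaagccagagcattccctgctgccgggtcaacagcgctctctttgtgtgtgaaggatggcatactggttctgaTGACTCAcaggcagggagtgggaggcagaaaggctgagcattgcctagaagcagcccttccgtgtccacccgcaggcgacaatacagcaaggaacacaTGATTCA
Gm17501: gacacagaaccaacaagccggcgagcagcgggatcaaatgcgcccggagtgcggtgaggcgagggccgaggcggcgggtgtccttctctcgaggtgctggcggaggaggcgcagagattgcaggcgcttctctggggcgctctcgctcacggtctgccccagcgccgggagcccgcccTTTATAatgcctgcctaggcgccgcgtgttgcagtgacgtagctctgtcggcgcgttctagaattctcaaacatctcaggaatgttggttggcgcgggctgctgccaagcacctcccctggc
Dubr: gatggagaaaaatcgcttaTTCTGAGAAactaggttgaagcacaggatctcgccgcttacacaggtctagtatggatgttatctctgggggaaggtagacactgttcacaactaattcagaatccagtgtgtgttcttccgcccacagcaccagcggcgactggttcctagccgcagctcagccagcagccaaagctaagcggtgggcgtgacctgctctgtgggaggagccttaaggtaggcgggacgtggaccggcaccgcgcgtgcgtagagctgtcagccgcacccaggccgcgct
2410080I02Rik: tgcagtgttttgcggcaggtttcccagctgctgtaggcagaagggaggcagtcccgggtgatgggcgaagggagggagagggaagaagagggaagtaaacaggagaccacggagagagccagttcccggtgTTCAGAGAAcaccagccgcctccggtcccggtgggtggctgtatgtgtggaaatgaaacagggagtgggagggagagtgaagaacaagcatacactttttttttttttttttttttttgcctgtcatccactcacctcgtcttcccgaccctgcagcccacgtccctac
The AP-1 motif was searched on both strands as TGANTCA. The interferon-gamma-activated site was searched likewise as TTCNNNGAA. The core promoter box was searched likewise as TATAAA. Gm42788 had AP-1 letters with their first base at -55 and 43 from the start and interferon-site letters at -242. Dubr had interferon-site letters at -231 and 2410080I02Rik at -119. Gm17501 had the core promoter letters on the other strand at -72, the strand of its neighbour Cyr61. Among 32851 RefSeq promoters of the same length, 13.6% held the core promoter letters, 8.30% the interferon-site letters and 7.81% the AP-1 letters. None of the 3 had a match in the windows of AU020206 or AW112010. Nor did any match in those of D630033O11Rik, whose RefSeq starts lie downstream of its GENCODE M21 start. Tbx3os2, whose window is not shown, had AP-1 letters with their first base at -71. The GENCODE M21 start, used for the member positions given below, is the same for Gm42788 and Dubr but lies 235 bp downstream of the RefSeq start for Gm17501 and 402 bp for 2410080I02Rik, whose windows thus lie wholly before it. Positions here count from the RefSeq start. These matches describe letters and not bound sites.

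Several members may not be separable from a coding gene on the other strand in the colon tables. The exons of 57 members overlap a coding exon on the opposite strand (GENCODE M21). Snhg6, a host of small nucleolar RNAs, overlaps Mcmdc2, a gene of meiosis, and Snhg6 had 254, 114 and 50 normalised counts in G while Mcmdc2 had 257, 114 and 54. Across the 9 normal colon libraries Snhg6 held a median of 98.1% of the Mcmdc2 value and across the 9 DSS libraries 98.8%. In the 11 small intestinal libraries Mcmdc2 lay between 0 and 9 while Snhg6 lay between 57 and 201. Gm26640, 100 bp from Tmsb10, had a median of 99.9% of the Tmsb10 value in normal colon.

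Over all such pairs the share of close tracking was counted. Of 56 pairs of a member and an opposite-strand coding gene with overlapping exons, 15 had a Pearson correlation of log2 values over 0.9 across the normal colon libraries, as did 14 of 41 pairs in the DSS colon and 0 of 8 in the small intestine. Coding genes on the opposite strand within 5000 bp but without overlap gave 8 of 33, 8 of 21 and 0 of 12. Coding genes on the same strand within 5000 bp gave 0 of 15, 0 of 11 and 0 of 7. Pairs share their libraries and some share a member, so these counts are a description. How strand was treated in counting is not given in the sources used here. Reads of the 2 genes of such a pair may therefore not be separable in the colon. A high correlation did not require near-equal values. In the DSS colon Tbx3os2 held a median of 50.3% of the Tbx3 value and Gm20467 1.97% of the Nkx2-3 value. Whether such pairs share reads was not tested. In all, 20 members had a correlation over 0.9 with an opposite-strand coding gene in one of the colon scales, among them Snhg6, Snhg12, Epb41l4aos, Tbx3os2 and Gm26640.

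**Figure D1:**
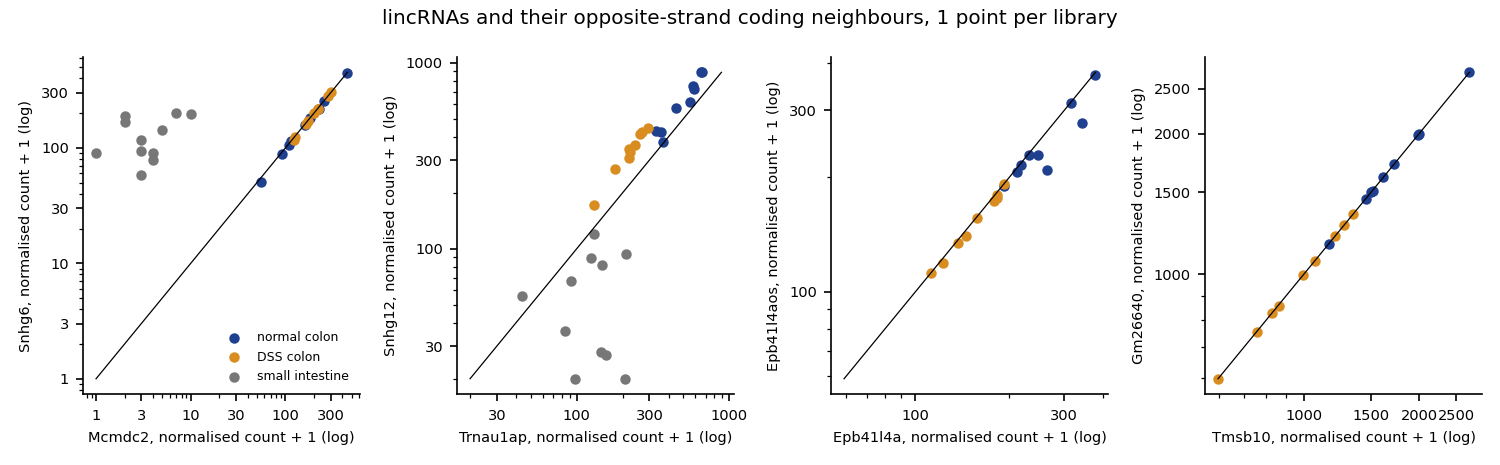
Normalised count + 1 of 4 lincRNAs (vertical, log axis) against the opposite-strand coding gene (horizontal, log axis), 1 point per library, with the line of equal values. Colon libraries of Snhg6 and Mcmdc2 lie on the line, and the 11 small intestinal libraries lie far above it, with Mcmdc2 at 0 to 9; the gene Epb41l4a and the lincRNA Gm26640 have no small intestinal values here.

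The small intestinal tables also listed fewer members. Of the 252 members, 160 were listed in tables of both tissues, 81 in colon tables alone and 11 in small intestinal tables alone. Of the 81 without a small intestinal row, 34 (42.0%) overlapped an opposite-strand coding exon, against 23 of 171 (13.5%) of those with one. Biotypes differed between the table families for 9 members, and Fendrr had the biotype lincRNA in the normal colon tables alone. In GENCODE M21, 223 of the 252 were still lincRNAs, 13 antisense and 1, 6030408B16Rik, protein-coding. AY036118 and Gm42418 lie over the ribosomal RNA gene Rn18s-rs5, with Gm26917 next to them, and Gm26870 overlaps several near-identical coding models at the start of chromosome 9, so the levels of these 4 are uncertain.

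Colon libraries held 2847282 to 4435964 normalised counts and small intestinal ones 2136684 to 2495532, from an estimated 1228000 to 4415000 reads (4 libraries could not be estimated). Defining mesenchymal markers (Col1a1, Col1a2, Col3a1, Pdgfra and 5 more) were present in every group, with sums between 23727 and 114592 in sorted libraries. Immune markers summed to 85 to 4725 in sorted and to 10485 to 52650 in unsorted libraries, and erythroid markers to 62 to 1054 and 1639 to 23301. Values of normal colon, DSS colon and small intestine are each on their own scale, and levels are compared below only within one of them. In bulk samples, fewer cells of a type and less RNA per cell cannot be told apart.

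lincRNAs took a small share of the counts in every group. Members summed to 1.20% to 1.43% of all counts in G libraries, 0.94% to 1.24% in T and 0.55% to 0.89% in U. In the DSS colon the shares were 0.75% to 0.99% in GDS, 0.75% to 0.90% in TDS and 0.47% to 0.79% in UDS. Small intestinal libraries gave 0.35% to 0.47% in GIH, 0.30% to 0.44% in GIL, 0.46% to 0.63% in TI and 0.56% to 0.63% in UI. In the normal colon the 3 groups stood in this order without overlap, except that the lowest G library lay below the highest T library. Most members were low: 103 had a highest group mean from 10 to below 20, 96 from 20 to below 100, 44 from 100 to below 1000 and 8 of at least 1000. Of the 204 members that reached 10 in a normal colon group, 96 were highest in G, 53 in T and 55 in U. The spread between libraries was wide, with a median coefficient of variation of 33.2% in G, 37.1% in T, 47.9% in U and 59.9% in TI.

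Malat1 had the highest mean over the 10 groups, with AY036118 above it in T. Malat1 (chr19:5795690-5802672) had 12791, 18661 and 22574 normalised counts in G, 7118, 9650 and 10690 in T and 7660, 4650 and 3346 in U. In the DSS colon it had 14340, 10216 and 5642 in GDS, 7819, 11112 and 10367 in TDS and 1770, 7277 and 4248 in UDS. In the small intestine no library exceeded 1240. In the normal colon G libraries lay above the rest, and in the DSS colon GDS and TDS overlapped. Neat1 (chr19:5824708-5845478) had 1521, 1500 and 1475 in G, 1429, 993 and 908 in T and 1493, 1856 and 890 in U, and small intestinal libraries lay between 268 and 1221. In UI Neat1 had 1090 and 1221, above all 9 sorted small intestinal libraries. Xist was low, at 13 to 98 in every colon library and 35 to 437 in the small intestine, while the Y-linked gene Ddx3y had 44 to 262 in every library.

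Imprinted lincRNAs of the Dlk1-Dio3 cluster on chromosome 12 were high in the colon. Meg3 (chr12:109541001-109571726), a maternally expressed transcript, had 2102, 2365 and 4035 in G, 5231, 8625 and 4456 in T and 1436, 490 and 593 in U. After DSS it had 1980, 1405 and 1201 in GDS, 2381, 3699 and 3414 in TDS and 218, 677 and 696 in UDS. T libraries lay above G and G above U in both states. Mirg, the miRNA cluster host downstream of Meg3, had 92, 67 and 160 in G, 101, 366 and 155 in T and 17, 21 and 37 in U. H19, an imprinted transcript that hosts miR-675, was near 0 in the colon (0 to 11) and had 0 to 74 in the small intestine.

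**Figure D2:**
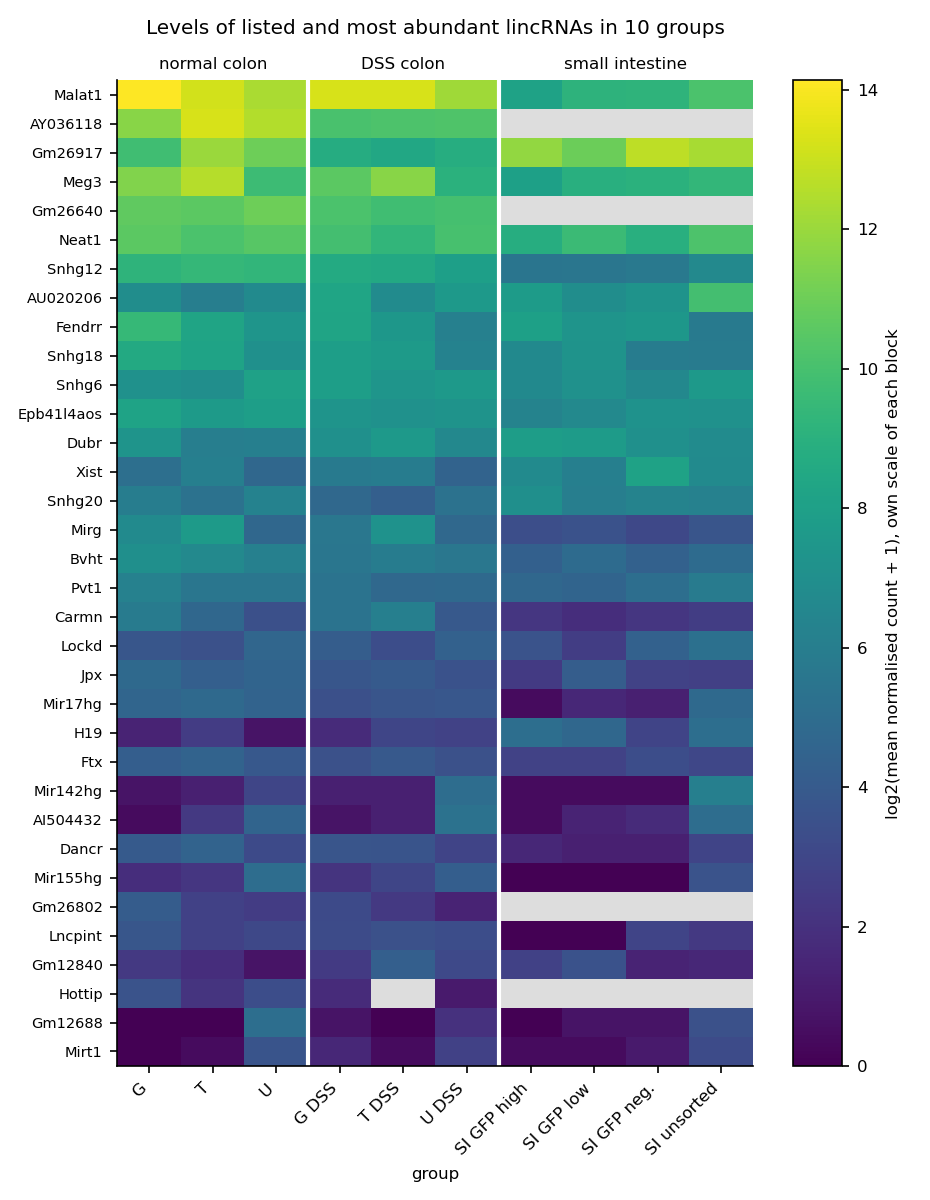
Colour gives log2(mean normalised count + 1) of each member of a named list and of 5 of the 6 most abundant members (rows) in 10 groups (columns), with grey for a member without a row in that table family. Each of the 3 blocks has its own scale, so colours compare within a block; Malat1 in G is the brightest cell of the normal colon block.

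How lincRNAs answered DSS was asked separately in GFP-positive and GFP-negative colon cells. Under limma on log2(normalised count + 1), fitted over all features with Benjamini-Hochberg adjustment and a threshold of 0.05, 32 of 164 members tested in GFP-positive cells changed, 14 higher and 18 lower. Over all 12976 features 19.7% passed (10.2% higher and 9.46% lower), against 19.5% of the members. In GFP-negative cells 20 of 155 changed, 12 higher and 8 lower, or 12.9% against 10.3% of all 13025 features (6.03% higher and 4.27% lower). With all libraries scaled to equal totals the split became 12 higher and 25 lower in GFP-positive cells (991 and 1585 over all features) and 11 higher and 13 lower in GFP-negative cells (612 and 776 over all features, against 785 and 556). That scaling moved the median log2 fold change of all features to -0.13 and -0.14. The rule used the levels of these tables, so nothing is read from the shares. Members that reached the minimum in small intestinal tables, a choice that used no colon value, passed in 10 of 77 cases (13.0%) and 10 of 73 (13.7%), although they too had to pass the colon filter on low values. The median log2 fold change was -0.18 over members and -0.01 over all features in GFP-positive cells, and -0.09 and -0.02 in GFP-negative cells. Of the 20 members that tracked an opposite-strand gene, 5 were among the 32 and 1 among the 20.

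Mesenchymal markers summed to 64479 to 72705 in G and 33342 to 37038 in GDS, and to 69466 to 96710 in T and 72713 to 97012 in TDS, on the scale common to the sorted colon libraries. The GFP-positive libraries thus differed by state in this sum without overlap, and its part in the GFP-positive results was not tested.

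Single libraries moved these counts. Without GDS library 1, 2 or 3 the first count was 17, 18 or 16, and without T library 2 or TDS library 1, 2 or 3 the second was 12, 13, 7 or 8. All leave-one-out fits kept 12 of the 32 and 7 of the 20 calls. Counts over all features in the leave-one-out fits are not given here or below. Nothing particular to lincRNAs is therefore read from how these counts move. All fold changes below are on the log2(value + 1) scale, which understates the change of low members. Values in this comparison are on a scale common to the 12 sorted colon libraries. Here and below, a member with a mean of at least 10 in only 1 group passed the filter through that group. The p-value of such a member is a description.

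In both cell types 6 lincRNAs rose. AU020206 (chr7:75769038-75782099), listed here among inflammation-related lincRNAs, had 96, 133 and 72 in G and 433, 343 and 348 in GDS, and 38, 45 and 85 in T and 130, 125 and 137 in TDS. DSS libraries lay above normal ones in both cell types without overlap. The log2 fold change was 1.93 ± 0.24 (SE, limma adjusted p = 0.000201) in GFP-positive and 1.29 ± 0.31 (limma adjusted p = 0.0232) in GFP-negative cells. The first call held in all 6 leave-one-out fits and the second was lost without T library 2 or any TDS library. The nearest coding gene, Akap13 on the other strand, moved the other way in GFP-positive cells (-0.73 ± 0.22, limma adjusted p = 0.0299).

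AW112010 (chr19:11047617-11050566), a transcript known from macrophages in infection, had 190, 387 and 304 in G and 839, 553 and 850 in GDS. In GFP-negative cells it had 53, 146 and 189 in T and 519, 295 and 412 in TDS. Again the states did not overlap. It rose by 1.38 ± 0.27 (limma adjusted p = 0.00437) and 1.80 ± 0.41 (limma adjusted p = 0.0186), the second call being lost when any single TDS library was left out. Immune markers summed to 98 to 405 in G and 98 to 456 in GDS, and to 857 to 3979 in T and 362 to 961 in TDS, on the same scale. AW112010 was chosen after its values were seen, as were Gm44067, Gm17501, Gm20186 and 6720427I07Rik.

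Gm42788 (chr5:149144263-149153540), which runs over Hmgb1 on the opposite strand without exon overlap, had 49, 56 and 75 in G and 85, 100 and 122 in GDS, and 66, 50 and 32 in T and 211, 152 and 159 in TDS. The GFP-negative rise was 1.84 ± 0.30 (limma adjusted p = 0.00316) and held in all 6 leave-one-out fits. In GFP-positive cells it was 0.77 ± 0.25 (limma adjusted p = 0.0444), held in 1 of 6, and was lost without the filter on low values, under equal totals and without trend and robust variance. Hmgb1, a chromatin protein released on cell injury, had 0.59 ± 0.20 (limma adjusted p = 0.0576) and 0.39 ± 0.24 (limma adjusted p = 0.314).

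Low members gave the highest fold changes. Gm26809 (chr6:18844220-18847360) had 13, 5 and 24 in G and 45, 65 and 68 in GDS, and 5, 16 and 13 in T and 93, 235 and 212 in TDS. It rose by 2.21 ± 0.46 (limma adjusted p = 0.00652) and 3.90 ± 0.45 (limma adjusted p = 0.000357) and held in every leave-one-out fit of both comparisons. It lies 1219 bp from Lsm8 on the same strand, which rose by 0.84 ± 0.22 (limma adjusted p = 0.0191) in GFP-positive cells and had 0.29 ± 0.25 (limma adjusted p = 0.487) in GFP-negative cells. On the other strand it overlaps Gm20186 (chr6:18845910-18848207), another member, which had 80, 83 and 59 in T and 235, 287 and 228 in TDS (1.75 ± 0.25, limma adjusted p = 0.00123). Because strand handling is not given, reads of Gm26809 and Gm20186 may not be separable.

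6030408B16Rik had 2, 1 and 3 in G and 13, 12 and 14 in GDS, and 4, 3 and 4 in T and 49, 70 and 62 in TDS. Its rises were 2.28 ± 0.58 (limma adjusted p = 0.0158), lost when any single GDS library was left out, and 3.71 ± 0.39 (limma adjusted p = 0.000169), kept throughout. It is protein-coding in GENCODE M21 and lies 2278 bp from Atg101 on the same strand. Gm44386, 8219 bp from Pcbp1, had 6, 5 and 8 in G and 36, 34 and 27 in GDS, and 2, 4 and 8 in T and 42, 19 and 23 in TDS. It rose by 2.19 ± 0.38 (limma adjusted p = 0.0019) and 2.42 ± 0.55 (limma adjusted p = 0.0174), the second lost without T library 2 or any TDS library.

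Another 5 lincRNAs fell in both cell types. D630033O11Rik (chr9:43243599-43280076) had 39, 46 and 44 in G and 12, 8 and 9 in GDS, and 82, 61 and 53 in T and 6, 10 and 11 in TDS. DSS libraries were all below normal ones. The change was -2.06 ± 0.33 (limma adjusted p = 0.00111) and -2.74 ± 0.36 (limma adjusted p = 0.000814), and held in every leave-one-out fit. Oaf, 3688 bp away on the other strand, had -0.13 ± 0.22 (limma adjusted p = 0.714) in GFP-positive cells and fell by 0.86 ± 0.22 (limma adjusted p = 0.0325) in GFP-negative cells.

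2410080I02Rik (chr19:23134900-23135717) had 83, 57 and 90 in G and 22, 14 and 15 in GDS, and 115, 81 and 35 in T and 17, 31 and 25 in TDS. It fell by 2.11 ± 0.30 (limma adjusted p = 0.000557) and 1.51 ± 0.42 (limma adjusted p = 0.0429), the first kept in every leave-one-out fit and the second in 1 of 6. It lies 5509 bp from Klf9, a glucocorticoid-responsive Kruppel-like transcription factor on the same strand, which fell by 1.18 ± 0.27 (limma adjusted p = 0.00958) in GFP-positive cells and had -0.57 ± 0.27 (limma adjusted p = 0.201) in GFP-negative cells. Gm44067 had 371, 556 and 702 in G and 144, 95 and 186 in GDS (-1.94 ± 0.28, limma adjusted p = 0.000878), and 778, 296 and 216 in T and 102, 131 and 185 in TDS (-1.44 ± 0.42, limma adjusted p = 0.0486). The GFP-negative call was lost without T library 2 or any TDS library and with a pseudocount of 0.5.

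AY036118, over the ribosomal RNA locus, had 2290, 2190 and 3388 in G and 1038, 1769 and 940 in GDS, and 10193, 3472 and 11923 in T and 1849, 1347 and 882 in TDS. It had -1.10 ± 0.27 (limma adjusted p = 0.0125) and -2.53 ± 0.45 (limma adjusted p = 0.00489). Gm26917, beside it, had 10417 in T library 1 against 965 and 1050 in the others on its own scale and did not pass (limma adjusted p = 0.207). Gm26870 had 15127, 2410 and 4084 in G and 896, 719 and 391 in GDS, and 1362, 470 and 739 in T and 447, 289 and 164 in TDS. It fell by 3.07 ± 0.73 (limma adjusted p = 0.0383) and 1.49 ± 0.42 (limma adjusted p = 0.0435), each lost in 4 of 6 leave-one-out fits.

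**Figure D3:**
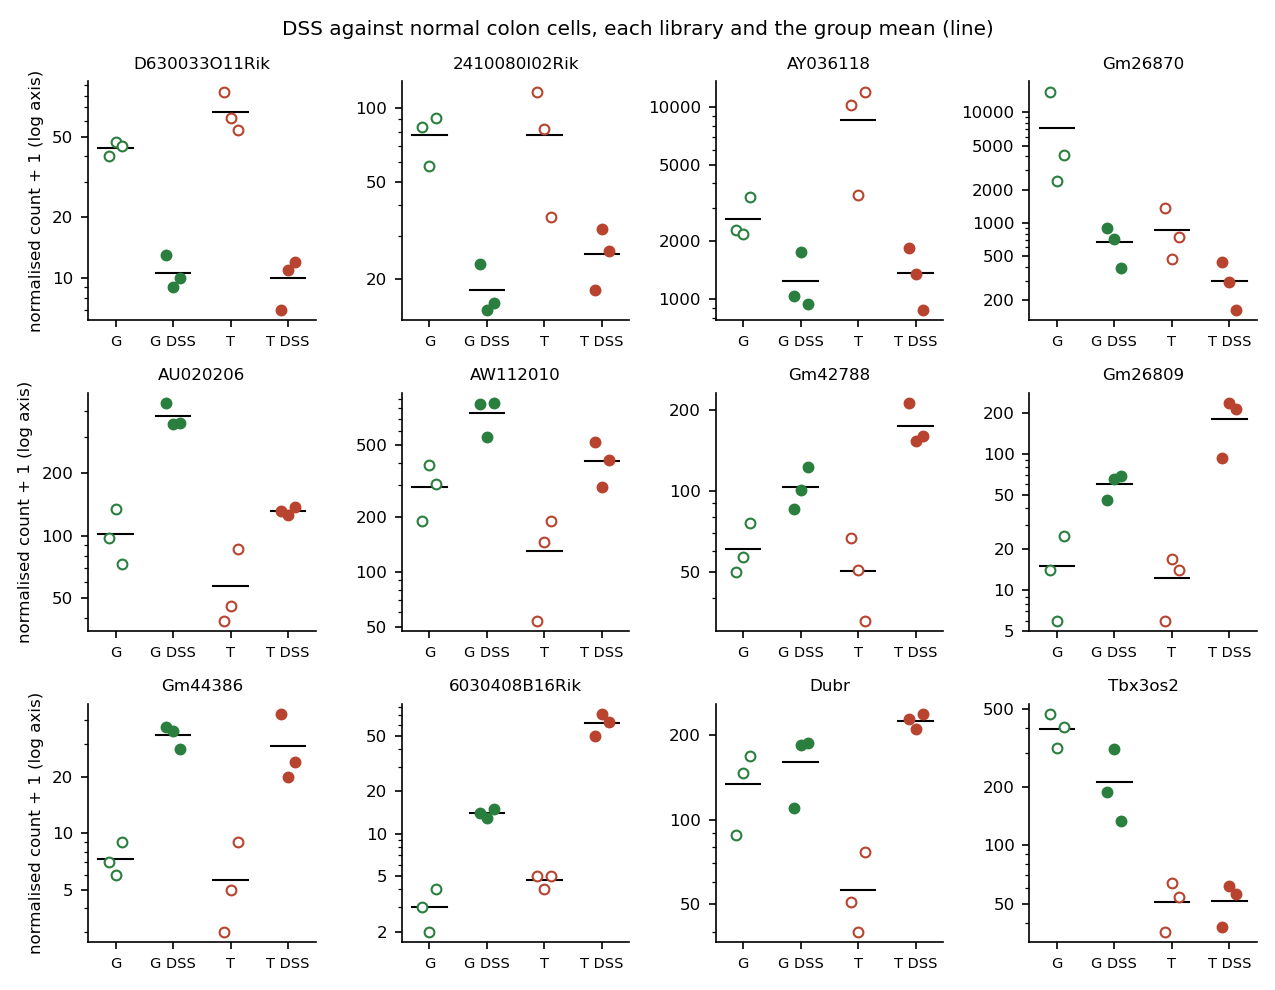
Normalised count + 1 (log axis, scale common to sorted colon libraries) of 12 lincRNAs in G, GDS (G DSS), T and TDS (T DSS), 3 libraries each (points) with the group mean (line). D630033O11Rik falls from 39 to 46 down to 8 to 12 in GFP-positive cells, and Dubr rises in T from 39 to 76 up to 209 to 236 while its G and GDS libraries overlap.

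Some members passed in GFP-negative cells and not in GFP-positive cells. Dubr (chr16:50719294-50732773), known from work on muscle differentiation, had 50, 39 and 76 in T and 227, 209 and 236 in TDS, a rise of 2.06 ± 0.28 (limma adjusted p = 0.000975) kept in every leave-one-out fit. In GFP-positive cells it had 87, 146 and 167 against 109, 184 and 186 (0.27 ± 0.29, limma adjusted p = 0.534). Carmn, a marker of smooth muscle, had 17, 34 and 14 in T and 36, 127 and 73 in TDS (1.74 ± 0.46, limma adjusted p = 0.036, kept in 2 of 6). Smooth muscle and pericyte markers summed to 1310 to 2793 in T and 4186 to 4882 in TDS, and to 7637 to 11182 in G and 11529 to 13410 in GDS; their part in the Carmn result was not tested. The let-7d host 6720427I07Rik had 19, 47 and 36 in T and 60, 131 and 126 in TDS (1.62 ± 0.39, limma adjusted p = 0.0247). Gm12840 had 0, 5 and 2 in T and 9, 23 and 32 in TDS (2.93 ± 0.78, limma adjusted p = 0.0351).

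Others passed in GFP-positive cells. Gm17501 (chr3:145650312-145677580) had 21, 28 and 34 in G and 61, 103 and 67 in GDS, a rise of 1.43 ± 0.29 (limma adjusted p = 0.00517) kept in every leave-one-out fit. Its neighbour Cyr61, a matricellular protein gene 331 bp away on the other strand, rose by 2.36 ± 0.34 (limma adjusted p = 0.00112). Across normal colon libraries Gm17501 held at most 1.58% of the Cyr61 value. Gm10655, 173 bp from Tle3, had 23, 70 and 43 in G and 5, 9 and 13 in GDS (-2.16 ± 0.45, limma adjusted p = 0.00582), and Gm26669, over Zfp36l1, had 43, 34 and 58 against 8, 14 and 7 (-2.13 ± 0.37, limma adjusted p = 0.00194). Both were kept in every leave-one-out fit, while Tle3 (0.69 ± 0.28, limma adjusted p = 0.101) and Zfp36l1 (-0.21 ± 0.31, limma adjusted p = 0.663) did not pass.

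Fendrr and Bvht fell in GFP-positive cells. Fendrr (chr8:121054882-121083110), needed for heart and body wall development, had 581, 471 and 707 in G and 335, 337 and 398 in GDS (-0.70 ± 0.21, limma adjusted p = 0.0301). Bvht, a cardiac lincRNA gene on chromosome 18, had 111, 79 and 137 against 56, 65 and 42 (-0.98 ± 0.27, limma adjusted p = 0.0219). They were kept in 1 and 2 of 6 leave-one-out fits. Both stand, with Dubr, in a list named for neighbours of developmental transcription factors, of which 3 members were tested. In that list 2 of 3 were lower in GFP-positive cells (9.46% of all features) with a median log2 fold change of -0.70, and in GFP-negative cells 1 of 3, Dubr, was higher (6.03%) with a median of -0.29. The list's name does not describe all of them, since the nearest coding gene was Pcyox1l, 49365 bp away, for Bvht and Bbx, 286904 bp away, for Dubr, and Tbx3os2 was not in the list. Tbx3os2 had 471, 316 and 406 in G and 187, 313 and 133 in GDS (-0.98 ± 0.29, limma adjusted p = 0.0328, kept in 2 of 6). Tbx3, from which its reads may not be separable, had -0.63 ± 0.25 (limma adjusted p = 0.0947). Over all features 19.7% passed in GFP-positive and 10.3% in GFP-negative cells. The lists that follow are too small to set against those shares. Nuclear body and X chromosome lincRNAs passed in 0 of 5 cases in either cell type. SnoRNA hosts passed in 0 of 7 and p53, growth and stress lincRNAs in 0 of 3. Of the 4 tested inflammation-related members, 1 rose in GFP-positive cells (AU020206) and 2 in GFP-negative cells (AU020206 and Gm12840). Of the 4 tested members in the list of miRNA hosts 1, Carmn, rose in GFP-negative cells. That list differs from the 10 members with a RefSeq hairpin. Carmn had no such hairpin, and the let-7d host 6720427I07Rik, which also rose in GFP-negative cells, was not in the list. At an unadjusted p under 0.05, 60 of 164 members in GFP-positive and 43 of 155 in GFP-negative cells passed, against 34.5% and 27.2% of all features.

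Of the 135 members tested in both cell types, 11 passed in both and all 11 had the same sign (746 of 748 over all features), 18 passed in GFP-positive cells alone, 7 in GFP-negative cells alone and 99 in neither. Members that passed in GFP-positive cells also passed in GFP-negative cells in 34.4% of cases, and the reverse share was 55.0%, against 29.3% and 55.8% over all features. The 2 comparisons share no library. The difference of the responses was tested as an interaction, and 0 of 181 members passed with limma (21 at an unadjusted p under 0.05, against 8.01% of all features), against 0.0519% of all 13488 features. The smallest adjusted p was 0.223, for Dubr, with a difference, GFP-positive minus GFP-negative, of -1.79 ± 0.42. Members that passed in one cell type alone are therefore not shown to respond in that type alone.

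**Figure D4:**
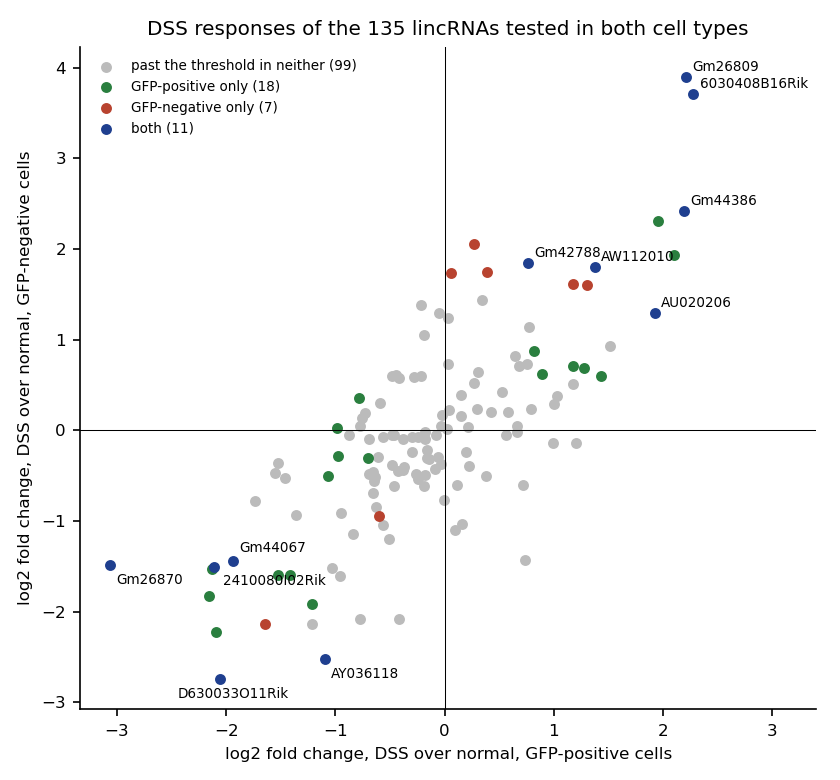
Log2 fold change, DSS over normal, of the 135 members tested in both cell types, with GFP-positive cells on the horizontal and GFP-negative cells on the vertical axis, coloured by which comparison passed. The 11 members that passed in both lie in the lower left (5) and upper right (6) quadrants.

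A minority of nearby coding genes passed. Of the 32 members that changed in GFP-positive cells, 21 had a coding gene within 5000 bp, 20 of those genes were tested, and 6 passed, all in the member's direction (30.0%, against 19.7% of all features). In GFP-negative cells 9 of 20 had one, 8 were tested and 3 passed, again in the member's direction (37.5%, against 10.3% of all features). Lsm8, which did not pass there, is counted once for Gm26809 and once for Gm20186. These passes include pairs that may not be separable here, 4930509G22Rik with Rsl1d1 and, in both cell types, Gm26870 with a near-identical coding model. Without the members that tracked an opposite-strand gene, 4 of 15 and 2 of 7 passed. The authors' deposited table gave adjusted p (FDR) under 0.05 to 1 member in GFP-positive cells, Gm26870 (log2 fold change -3.43), and to Gm26809 (3.88) and Gm26917 (-3.01) in GFP-negative cells. Over all rows the authors' deposited table gave it to 37 higher and 8 lower of 16653 and to 67 higher and 9 lower of 16386.

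Between sorted cells, 10 of 178 members differed in the normal colon, 7 higher and 3 lower in GFP-positive cells, or 5.62% against 5.98% of all 13346 features (2.97% higher and 3.01% lower). In the DSS colon 29 of 140 did, 17 higher and 12 lower, or 20.7% against 17.1% of 12570 (8.22% higher and 8.9% lower). Without T library 2 or 3 or G library 2 or 3 the first count was 4, 6, 5 or 4, and without GDS library 1, 2 or 3 the second was 15, 16 or 18.

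The largest fitted fold change among members that passed, in both states, was that of F730016J06Rik (chr2:28095477-28127731), 55963 bp from the collagen gene Col5a1. It had 35, 12 and 32 in G and 0, 0 and 1 in T, and 23, 33 and 40 in GDS and 0, 0 and 1 in TDS. Unsorted colon cells had 6, 1 and 1, and 1, 3 and 4. It was 4.30 ± 0.71 higher in G than in T (limma adjusted p = 0.00448, lost without G library 3) and 4.68 ± 0.58 higher in GDS than in TDS (limma adjusted p = 4.6e-05, kept throughout). Tbx3os2 had 563, 377 and 483 in G and 41, 74 and 62 in T, and differed by 3.01 ± 0.29 (limma adjusted p = 0.000296), with Tbx3 at 896, 624 and 920 against 82, 108 and 139 in the same libraries. After DSS it had 159, 267 and 114 in GDS and 31, 51 and 47 in TDS (1.98 ± 0.29, limma adjusted p = 0.000257). Tbx3 is a T-box transcription factor of embryonic patterning. Gm13056 had 38, 30 and 32 in G and 2, 1 and 4 in T (3.46 ± 0.53, limma adjusted p = 0.0028).

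Fendrr had 695, 562 and 840 in G and 218, 374 and 337 in T. It was higher by 1.19 ± 0.28 in G (limma adjusted p = 0.0329), a call lost in every leave-one-out fit, and by 0.80 ± 0.19 in GDS over TDS (limma adjusted p = 0.00795), kept in every one. AU020206 was higher in GDS than in TDS by 1.51 ± 0.18 (limma adjusted p = 2.95e-05). RP23-365O13.3 was higher in GDS by 3.75 ± 0.74 (limma adjusted p = 0.00239). In the other direction, Meg3 was lower in GDS than in TDS (log2 difference -1.06 ± 0.22, limma adjusted p = 0.00421), as was Mirg (-1.75 ± 0.40, limma adjusted p = 0.0114). Between G and T in the normal colon, 0 of the 2 imprinted members tested passed. Gm15675, 1836 bp from the complement regulator gene Cd55, was lower in GFP-positive cells in both states, and 2700033N17Rik, 379 bp from Meis2 on the same strand, was lower in GDS (log2 difference -3.36 ± 0.72, limma adjusted p = 0.00461).

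In the small intestine 0 of 92 members differed between GIH and TI with limma (8 at an unadjusted p under 0.05, against 10.6% of all features), against 0.894% of all 12412 features. Between GIH and GIL 0 of 97 differed (6 at an unadjusted p under 0.05, against 7.7%), against 0.384%. Between GIL and TI 1 of 93 did, against 0.675% (84 of 12445), namely Gm42418 with 48, 53 and 76 in GIL and 175, 206 and 288 in TI (-1.90 ± 0.36, limma adjusted p = 0.0424). It lies over the ribosomal RNA locus, and the call was lost in every leave-one-out fit.

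Against unsorted cells more members differed, as did more of all features. In the normal colon 55 of 192 differed between G and U, or 28.6% against 21.8% of all features, and 30 of 180 between T and U (16.7% against 18.8%). In the DSS colon 62 of 149 differed between GDS and UDS (41.6% against 37.1%) and 47 of 136 between TDS and UDS (34.6% against 33.0%). In the small intestine 23 of 99, 25 of 101 and 13 of 96 differed for GIH, GIL and TI, against 17.2%, 22.8% and 11.5% of all features. Without either UI library these became 0 (GIH and TI) or 3 and 4 (GIL), and without TI library 1 or 2 the last became 6 or 8. In the normal colon the G count was 36, 33 or 27 without G library 1, 2 or 3. The T count was 14 or 16 without U library 2 or 3 and 16 or 12 without T library 1 or 2. Counts over all features in these fits are not given here, so nothing particular to lincRNAs is read from them.

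Members high in unsorted cells included hosts of blood-cell miRNAs. Mir142hg, whose miR-142a is characteristic of blood cells, had 11, 4 and 5 in U, 32, 20 and 45 in UDS and 55 and 80 in UI, against 0 to 4 in every sorted library. Mir155hg, the host of the immune miR-155, had 57, 22 and 18 in U, 16, 20 and 17 in UDS and 14 and 9 in UI, against 0 to 9 in sorted libraries. AI662270 (chr11:83223576-83226604), 33355 bp from Slfn4, had 377, 153 and 194 in U, 394, 282 and 325 in UDS and 606 and 447 in UI, against 0 to 80. It was lower in G than in U (log2 difference -5.51 ± 0.49, limma adjusted p = 5.47e-05) and lower in GDS than in UDS (log2 difference -5.35 ± 0.35). Gm12688, 1316 bp from Foxd3, had 35, 49 and 16 in U and was listed at 0 in all G and T libraries. AU020206 had 1069 and 872 in UI against 93 to 287 in the 9 sorted small intestinal libraries. Mir17hg, whose miRNAs are shown above, had 42 and 12 in UI and 0 to 5 in the sorted small intestinal libraries. It was lower in GIH than in UI (log2 difference -4.23 ± 0.85, limma adjusted p = 0.0105), a call lost without either UI library, and in the normal colon had 16 to 28 in G, 24 to 32 in T and 18 to 26 in U. Unsorted libraries were also above every sorted library of their tissue in endothelial and epithelial marker sums. This did not hold for mesenchymal, muscle and pericyte, or glial and neuronal sums. Endothelial markers summed to 1287 to 2648 in unsorted and 68 to 261 in sorted colon libraries, and epithelial markers to 2561 to 20637 and 128 to 728. In the small intestine the gap was smaller, with endothelial sums of 1550 to 1557 in UI and 8 to 1131 in sorted libraries and epithelial sums of 2656 to 4779 and 81 to 1048. The part of those cells in these results was not tested.

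Members higher in sorted than in unsorted colon cells included Meg3, Fendrr, Snhg18, Gm22 and Tbx3os2, which passed in both G against U and GDS against UDS, and Mirg, which passed in G. In the small intestine Meg3 did not pass in GIH against UI (log2 difference -1.34 ± 0.49, limma adjusted p = 0.0981), nor did Mirg (-0.63 ± 0.92, limma adjusted p = 0.694). Fendrr was higher in G than in U by 2.07 ± 0.32 (limma adjusted p = 0.00132) and in GDS than in UDS by 2.13 ± 0.24, both kept in every leave-one-out fit, and had 162, 198 and 422 in GIH, 88, 186 and 203 in GIL and 43 and 68 in UI. Meg3 was higher in T than in U by 2.97 ± 0.47 (limma adjusted p = 0.00213). D630033O11Rik had 83 to 163 in sorted small intestinal libraries and 17 and 33 in UI.

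**Figure D5:**
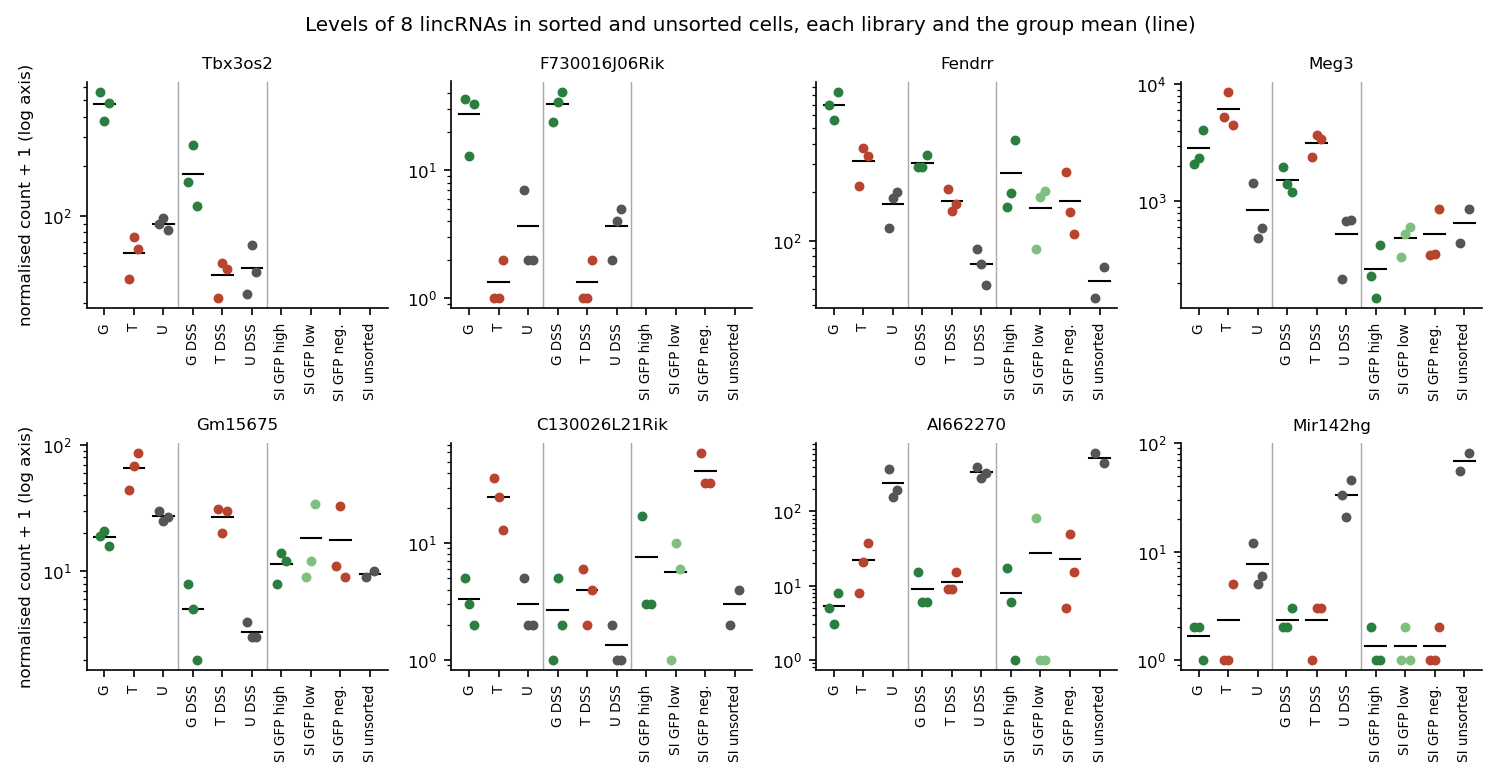
Normalised count + 1 (log axis) of 8 lincRNAs in each library (points) with the group mean (line), in normal colon, DSS colon and small intestine (SI), each block on its own scale. Tbx3os2 and F730016J06Rik are high in G and GDS, Meg3 in T and TDS, and AI662270 and Mir142hg in the unsorted groups; the first 2 have no small intestinal row.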

How the data were processed

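RNA of 29 libraries from 10 groups was measured by 3' end sequencing. Per the submitters' processing notes, the authors used TopHat2, Bowtie2 and DESeq with mm10. The strand setting, versions, counter and annotation were not given in the sources used here. The deposited normalised counts are whole numbers and are treated as a score, scaled by the authors, not raw counts. The p-values and log2 fold changes deposited by the authors were used only where named.

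limma 3.58.1 (R 4.3.3) was fitted with trend and robust variance on log2(value + 1), to the 2 groups of each table, over features with a mean of at least 10 in 1 group, and p-values were adjusted by Benjamini-Hochberg over all of them (threshold 0.05). On data simulated after the G libraries the script recovered 60% of 2-fold and 100% of 4-fold changes, so a member that did not pass may still have changed. Only features with a mean of at least 20 were changed there, with the spread of high features. Recovery was not tested for the 103 members with a highest group mean from 10 to below 20, nor for the other comparisons. The difference of the DSS responses was an interaction on the common scale. Values shared by tables of one family were identical, and no 2 libraries were. Member positions, strands and nearest coding genes came from the deposited annotation, and exon overlaps and gene types from GENCODE M21. Members named are those in the fixed lists, the 6 most abundant, the 6 with the largest DSS change in each direction, the 3 largest per sorted comparison and the 2 largest per unsorted comparison, with the nearest coding gene; 1 abundant member and its neighbour are not reported here. The members and lists were chosen with earlier results of these data known. Alternatives covered pseudocount, filter, scaling, variance, replicate block and single libraries.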

Additional observations from a re-analysis of the deposited data

How the results depend on the processing

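The number of members was 420 with a minimum mean of 5, 150 with 20 and 43 when every table had to pass. No direction reversed, and for named members 2144 of the values recomputed kept their side of the threshold and 395 lost it. Most counts of members that passed stayed within 1.5 times under other pseudocounts, filters, scalings and variances. The exceptions lay in the small intestine. GIL against TI, with 1 member, gave 3 with a pseudocount of 5, 3 without a filter on low values, 2 with a mean over all libraries of at least 10, 2 under median-ratio scaling, 0 under equal totals and 0 without trend and robust variance. With the mean over all libraries of at least 10, GIH against UI gave 15, GIL against UI 16 and TI against UI 8, and TI against UI gave 8 with a pseudocount of 0.5. Fewer features are tested under that filter, and for the others the cause was not tested.

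Leaving out 1 library at a time gave 16 to 32 members for the GFP-positive and 7 to 21 for the GFP-negative DSS response, 4 to 11 for G against T, 15 to 23 for GDS against TDS, 0 to 1 for GIH against TI and 0 for GIL against TI, GIH against GIL and the difference of the responses. Against unsorted cells the ranges were 27 to 65 for G, 12 to 37 for T, 46 to 62 for GDS, 34 to 49 for TDS, 0 to 26 for GIH, 3 to 25 for GIL and 0 to 15 for TI. Where an arm was left with 1 library, that library was assumed to vary like the other group.

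With the replicate number as a block, the DSS responses had 32 and 24 members, GIL against TI 0 and TI against UI 5, and the other counts stayed within 1.5 times. The numbers were not used to pair samples, since in no comparison of 3 against 3 did every same-numbered pair deviate together with a correlation over 0.1. Single correlations ran from -0.30 (GIL with TI, number 2) to 0.36 (TDS with UDS, number 1). TDS with UDS also had 0.29 at number 3 and 0.04 at number 2. Whether same-numbered libraries share an animal was not tested.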
